A study of Mus musculus with 4 samples.

Results

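The transcription factor p53, encoded by Trp53, and 9 of its direct targets were followed in mouse pancreatic islets with and without the retinoblastoma gene. The 10 genes, out of 22911 named on the array, were Trp53, Mdm2, Ccng1, Phlda3, Trp53inp1, Zmat3, Tnfrsf10b, Fas, Ddb2 and Sesn2, and they were found by the accession of each array probe. All 10 were present, with 15 probes in all, and each had a probe well above background on all 4 arrays. Islets of 2 mice titled wild type, with the genotype Pdx1-Cre, are called control here. Islets of 2 mice with the genotype Pdx1-Cre:Rbf/f, in which both Rb alleles are floxed, are called Rb-deficient. All 4 mice carried the Cre transgene, whose Pdx1 promoter is active in the pancreatic lineage, exocrine cells included. Age, sex and strain are not stated in the labels. Each mouse gave 1 single-colour Agilent array, so each group had 2 arrays.

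p53 is held at a low level in unstressed cells by the ubiquitin ligase Mdm2, itself a p53 target, which closes a feedback loop. DNA damage or oncogene activity frees p53, the latter through the Arf protein of the Cdkn2a locus, which binds Mdm2. Since p53 is regulated mostly as a protein, the RNA levels of its targets are commonly read as a sign of its activity. Loss of Rb releases E2F factors, and Arf is a known E2F-responsive gene.

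p53 binds a response element built from copies of a palindromic decamer. RefSeq promoter windows on GRCm38.p6, from 250 bases before to 50 bases after the annotated start, were at hand for 6 of the 10 genes and were searched for that decamer. Because the decamer is palindromic, a match counts for both strands. It was found in 8.36% of all 32851 windows, and in 3 of these 6. They are shown with the match in capitals, and whether a match bears on the array values was not tested. Phlda3, the gene with the largest excursion on a single array, is shown beside them and holds no match in this window. The windows lie at chr11:40755237-40755536 (minus strand) for Ccng1, chr10:117710709-117711008 (minus strand) for Mdm2, chr11:69580109-69580408 (plus strand) for Trp53 and chr1:135765835-135766134 (plus strand) for Phlda3.
Ccng1: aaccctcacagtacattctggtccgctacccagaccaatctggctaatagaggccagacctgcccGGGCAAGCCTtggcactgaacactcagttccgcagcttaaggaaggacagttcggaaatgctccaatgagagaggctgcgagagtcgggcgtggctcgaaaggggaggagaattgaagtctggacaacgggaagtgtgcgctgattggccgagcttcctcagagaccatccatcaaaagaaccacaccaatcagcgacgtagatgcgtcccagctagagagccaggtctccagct
Mdm2: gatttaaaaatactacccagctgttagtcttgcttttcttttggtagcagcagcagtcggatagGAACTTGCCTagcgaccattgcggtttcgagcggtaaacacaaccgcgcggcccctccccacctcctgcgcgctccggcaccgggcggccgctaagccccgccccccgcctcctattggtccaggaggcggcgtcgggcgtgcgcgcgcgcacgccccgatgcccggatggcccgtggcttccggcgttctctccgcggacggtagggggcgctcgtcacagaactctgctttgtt
Trp53: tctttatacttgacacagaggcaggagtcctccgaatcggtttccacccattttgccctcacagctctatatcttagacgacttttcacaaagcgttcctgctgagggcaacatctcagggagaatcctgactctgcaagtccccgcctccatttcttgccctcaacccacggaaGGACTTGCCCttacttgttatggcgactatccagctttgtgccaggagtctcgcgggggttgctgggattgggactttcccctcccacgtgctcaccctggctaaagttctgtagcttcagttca
Phlda3: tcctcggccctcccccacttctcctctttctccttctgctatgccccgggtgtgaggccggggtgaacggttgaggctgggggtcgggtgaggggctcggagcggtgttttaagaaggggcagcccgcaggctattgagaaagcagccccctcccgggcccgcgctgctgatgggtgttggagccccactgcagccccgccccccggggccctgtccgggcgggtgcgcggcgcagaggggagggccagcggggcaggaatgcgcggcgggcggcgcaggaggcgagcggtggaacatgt

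The matches begin 185 bases before the start in Ccng1, 186 in Mdm2 and 75 in Trp53. Fas and Sesn2, the other windows searched, hold no match. No window of the 6 holds 2 decamers with 13 or fewer bases between them, a pair found in 0.0731% of all windows. Among 31 other p53 targets with a window, 10 hold a match, in 11 of their 45 windows. A match describes letters only, and elements outside the windows were not searched.

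Values below are log2 processed intensities minus the 75th percentile of the array, called log2 signal, and differences are Rb-deficient minus control. The 75th percentile lay between 361 and 488 intensity units, and 59.0% to 76.5% of probes were well above background, with the highest share on control array 1. The Y-linked genes Ddx3y, Eif2s3y, Kdm5d and Uty were well above background on control array 1 only, and Xist on the other 3 arrays only. By these transcripts the control mice differ in sex, and both Rb-deficient mice match control array 2, so every control mean below spans both sexes. The Rb1 probe used read 0.28 and 0.86 in control and -0.48 and -0.90 in Rb-deficient islets, a difference of -1.26 with a standard error (SE) of 0.31 that limma did not call (adjusted p 0.735), and whether it lies in the deleted part is not known here. All 10 beta cell markers were well above background on every array. Bulk islets cannot tell fewer cells of a type from less RNA per cell.

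No member passed limma at an adjusted p of 0.05 (Benjamini-Hochberg over 26378 genes), and 0% of all genes did. At an unadjusted p of 0.05, 1 of the 10 was higher, Tnfrsf10b, against 1.48% of all genes. Both Rb-deficient arrays lay above both controls for 2 of 10 members, Mdm2 and Tnfrsf10b, where 15.3% of all genes did so, and below both for 0 of 10, where 20.7% did. The mean was higher in Rb-deficient islets for 7 of 10, against 41.9% of all genes. Across the 10, the median difference was 0.11, beside -0.068 over all genes tested. Of the 26378 genes tested, 10553 were features with no matched symbol. Over the 15825 named genes alone, 19.8% lay above both controls, 17.6% below both and 52.5% higher in the mean, with a median difference of 0.015. That count and that median rested on Rb-deficient array 2: without it 4 of 10 were higher and the median was -0.054. The median was 0.28 without control array 1 and -0.012 when the probes of a gene were averaged.

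**Figure D1:**
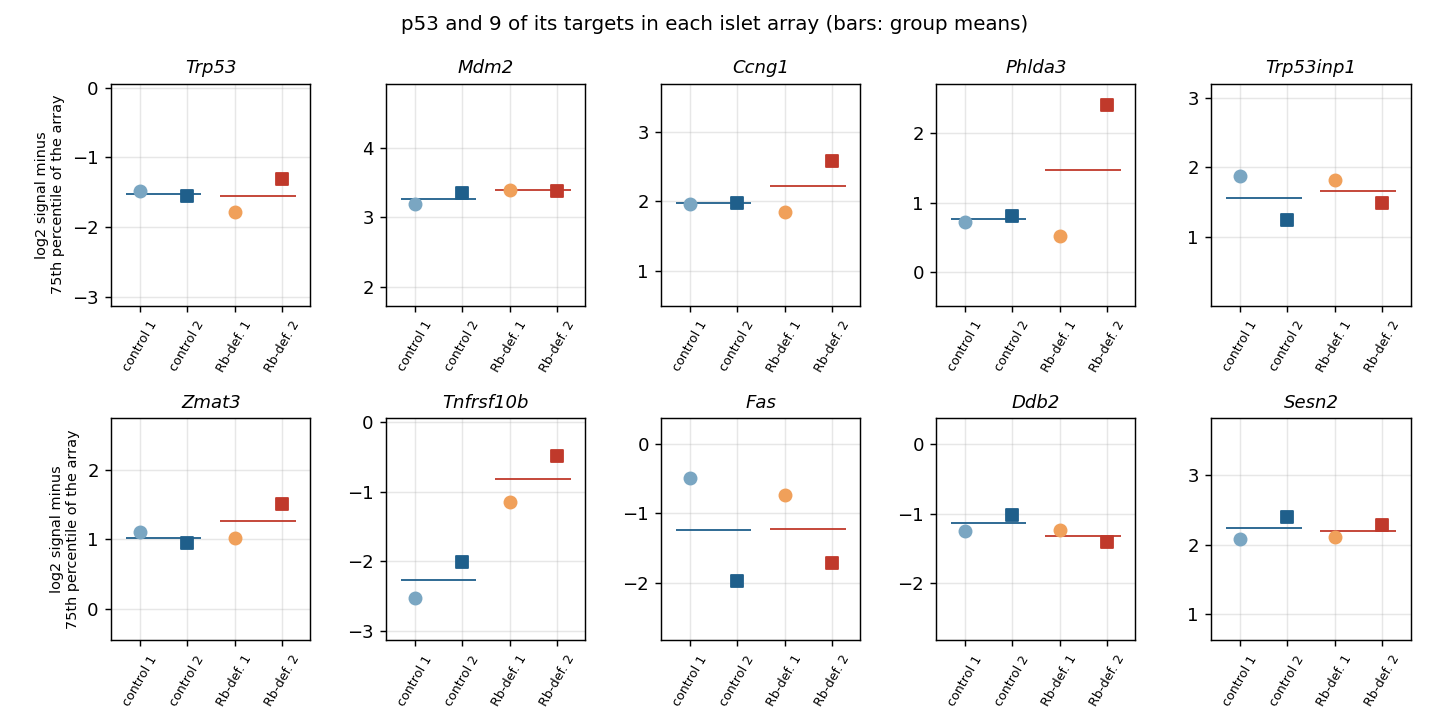
Log2 signal (minus the 75th percentile of the array) of the probe used for each gene, with 1 point per array and a bar at each group mean. Every panel spans the same number of log2 units. Phlda3, Ccng1 and Zmat3 stand out on Rb-deficient array 2 alone (2.41, 2.59 and 1.50), and Tnfrsf10b is higher on both Rb-deficient arrays.

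Trp53 itself read -1.48 and -1.56 in control and -1.79 and -1.32 in Rb-deficient islets. The Rb-deficient arrays lay on either side of the controls. At a difference of -0.032 (SE 0.24), the 95% interval of the Rb-deficient to control ratio ran from 0.608 to 1.57 (limma, adjusted p 0.980). The sign of this small value turned with quantile normalization (0.065), with scaling to the array median (0.41) and when control array 1 or Rb-deficient array 1 was left out (0.0062 and 0.20). Among 134 genes of the lists used here that were above background on all arrays, Plvap, an endothelial gene, Rpl5, a ribosomal protein gene, and Sfn, which encodes 14-3-3 sigma, followed the array-to-array course of Trp53 most closely. Their distances from it, over 4 arrays centred on the mean of each gene, were 0.091, 0.12 and 0.14 log2 units. A list always has nearest genes, and shared regulation with Trp53 was not tested.

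Mdm2, the ligase that degrades p53, was read by 2 probes of 1 accession that went opposite ways. The brighter gave 3.19 and 3.34 in control and 3.40 and 3.38 in Rb-deficient islets. Its groups were separate but lay within 0.21 log2 units of each other. The groups differed by 0.12 (SE 0.18), or 1.09-fold (limma, adjusted p 0.889). The dimmer probe read -2.38 and -2.42 in control and -2.60 and -2.95 in Rb-deficient islets. There the Rb-deficient arrays were the lower ones, 1.29-fold in the mean (limma over 33845 probes, adjusted p 0.863). Averaging both probes turned the difference to -0.12.

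Phlda3 encodes a small protein with a pleckstrin homology domain that restrains Akt, and it is described as a tumour suppressor of pancreatic neuroendocrine cells. Its log2 signal was 0.72 and 0.81 in control islets, 0.53 on Rb-deficient array 1 and 2.41 on Rb-deficient array 2. The first 3 values were close together and the last lay 1.60 above the highest of them. In unscaled intensity units the arrays read 593, 722, 524 and 2604 in the same order. On average the groups differed by 0.70 (SE 0.70), that is 1.63-fold with a 95% interval of the ratio from 0.409 to 6.49 (limma, adjusted p 0.866). Without Rb-deficient array 2 the difference was -0.24, and without Rb-deficient array 1 it was 1.65.

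Ccng1, the gene of cyclin G1, which recruits a phosphatase to Mdm2, showed the same course on a smaller scale. It read 1.97 and 1.98 in control and 1.85 and 2.59 in Rb-deficient islets. Rb-deficient array 2 lay 0.61 above the highest other array while the controls differed by 0.012. The groups differed by 0.24 (SE 0.32, limma, adjusted p 0.877), and -0.12 without Rb-deficient array 2.

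Zmat3, whose zinc finger protein binds RNA and adjusts splicing and stability of p53-pathway transcripts, read 1.10 and 0.95 in control and 1.02 and 1.50 in Rb-deficient islets. Again Rb-deficient array 2 was the highest, by 0.41, and array 1 lay between the controls. This made a difference of 0.24 (SE 0.25, limma, adjusted p 0.867), and -0.0040 without Rb-deficient array 2.

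Tnfrsf10b encodes the mouse death receptor for the ligand TRAIL and lies on chromosome 14, as does Rb1. Whether the shared chromosome bears on its values was not tested. The brighter probe of Tnfrsf10b read -2.52 and -2.00 in control and -1.14 and -0.49 in Rb-deficient islets. Both Rb-deficient arrays were above both controls, and array 2 was again the highest. The groups differed by 1.45 (SE 0.35), or 2.72-fold with a 95% interval of the ratio from 1.38 to 5.38, and it missed the threshold over all genes (limma, unadjusted p 0.0156, adjusted p 0.729). It ranged from 1.12 to 1.77 with each array left out in turn. With scaling to the array median limma did call it (difference 1.88, adjusted p 0.0346), in a fit that called 480 genes and put the median of all genes at 0.37. The dimmer probe did not separate the groups: it read -3.46 on control array 1, -6.38 on control array 2, where it was not well above background, and -4.84 and -4.68 in Rb-deficient islets. The mean of both probes differed by 0.80, and the brighter probe by 0.97 with normexp background correction.

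Fas, the gene of the death receptor CD95, divided the arrays by replicate number rather than by group. The brighter probe read -0.49 and -1.98 on control arrays 1 and 2 and -0.74 and -1.72 on Rb-deficient arrays 1 and 2. Each array 1 was high and each array 2 low. Between groups the difference was 0.0082 (SE 0.67), a ratio whose 95% interval ran from 0.273 to 3.71 (limma, adjusted p 0.998). A dimmer Fas probe, well above background on the same 2 high arrays only, failed the filter and was not tested.

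Trp53inp1, a stress-induced nuclear protein gene that aids p53 phosphorylation and autophagy, had that same order. Its brighter probe read 1.88 and 1.24 in control and 1.82 and 1.49 in Rb-deficient islets, with array 1 the higher in each group. The groups differed by 0.095 (SE 0.31, limma, adjusted p 0.950). Its dimmer probe differed by -0.34, again with array 1 the higher in each group.

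Ddb2, which encodes a sensor of ultraviolet damage in nucleotide excision repair and whose induction by p53 is best described for the human gene, read -1.25 and -1.01 in control and -1.24 and -1.40 in Rb-deficient islets. The groups differed by -0.19 (SE 0.20, limma, adjusted p 0.868), and -0.11 in its other probe. Sesn2, a leucine sensor that restrains mTORC1, read 2.09 and 2.40 in control and 2.10 and 2.29 in Rb-deficient islets, so its Rb-deficient values lay between the controls. Its groups differed by -0.047 (SE 0.22, limma, adjusted p 0.966). With scaling to the array median both genes had differences above 0, 0.25 and 0.39, because that scaling moved the median of all genes from -0.068 to 0.37.

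**Figure D2:**
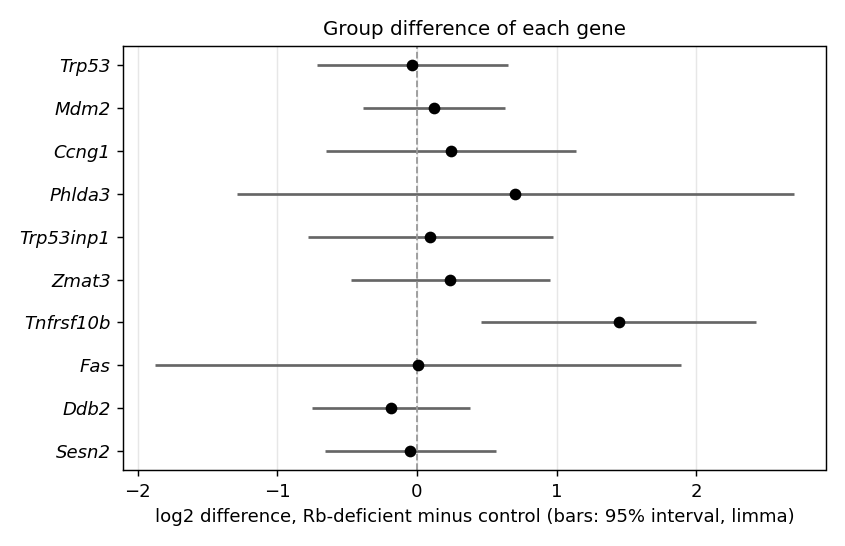
Difference of group means for each gene (log2 units, Rb-deficient minus control), with bars for the 95% interval from limma over 2 arrays a group. The interval of Tnfrsf10b alone lies to the right of 0, before adjustment over all genes, and those of Phlda3 and Fas are the widest.

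**Figure D3:**
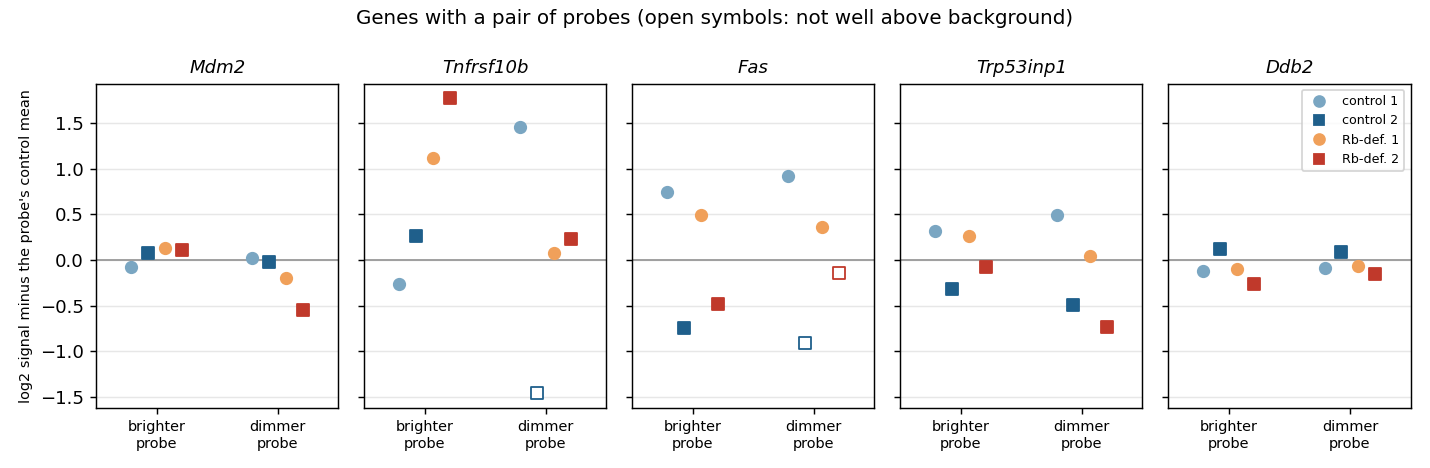
Log2 signal minus the control mean of the same probe for the 5 genes read by 2 probes, with 1 symbol per array and open symbols where the probe was not well above background. The probes of Mdm2 and Tnfrsf10b disagree, while those of Fas and of Trp53inp1 order the arrays alike by replicate number.

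In the median over these genes the Rb-deficient mice were farther apart than the control mice. The absolute difference between the Rb-deficient arrays had a median of 0.48 over the 10 members and 0.31 over all genes, while that between the control arrays had a median of 0.20 over the members and 0.28 over all genes. Rb-deficient array 2 was the highest of the 4 arrays for 5 of the 10 members, Phlda3, Tnfrsf10b, Ccng1, Zmat3 and Trp53, where 27.4% of all genes and 34.7% of the named genes were highest there. It stood at least 0.5 above every other array for 3 of 10, Phlda3, Tnfrsf10b and Ccng1, against 4.32% of all genes and 5.78% of the named genes. This way of counting was chosen after the values were seen. Under the other settings that kept this array, the first count was 5 to 7, the 7 with scaling to the array median, where 54.2% of all genes were highest on that array.

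The other p53 targets on a list of 36 were read in the same way. Of these, 33 were tested, Ptprv had no matched probe, and Eda2r and Gtse1 failed the filter. The difference was above 0 for 23 of 33, against 41.9% of all genes and 52.5% of the named genes, and below 0 for 10. The list median was 0.16, beside -0.068 over all genes and 0.015 over the named genes. Both Rb-deficient arrays exceeded both controls for 9 of 33, against 15.3% of all genes and 19.8% of the named genes. They lay below both for 4, against 20.7% of all genes and 17.6% of the named genes. Limma called 0 of 33 and 0% of all genes. Rb-deficient array 2 was the highest for 16 of 33, against 27.4% of all genes and 34.7% of the named genes. It was so by at least 0.5 for 4, against 4.32% of all genes and 5.78% of the named genes. Without Rb-deficient array 2 the list median was 0.021, and without Rb-deficient array 1 it was 0.33.

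Those 4 genes, named after their values were seen, were Psrc1, Aen, Sulf2 and Gadd45a. Aen, a nuclease induced by p53 in apoptosis, was read by 3 probes that gave the same course. The brightest read 2.87 and 2.90 in control islets, 2.86 on Rb-deficient array 1 and 3.90 on array 2. Psrc1, a spindle protein gene, read -2.62 and -3.58 in control and -3.08 on Rb-deficient array 1, and array 2 stood 1.62 above the highest of these. Sulf2, an extracellular sulfatase gene, stood 0.87 and Gadd45a, a growth arrest gene, 0.53 above the highest other array. The brightest Eda2r probe, chosen likewise, was at -4.72 and -5.21 in control and at -5.70 and -3.14 in Rb-deficient islets, well above background on control array 1 and Rb-deficient array 2 only.

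Cdkn1a, the gene of the cell cycle inhibitor p21 and a classic p53 target, did not separate the groups. Its brighter probe read 2.68 and 1.09 in control and 2.09 and 2.23 in Rb-deficient islets, a difference of 0.28 (SE 0.60, limma, adjusted p 0.921) that turned to -0.52 without control array 2. In its dimmer probe Rb-deficient array 2 stood apart, at -0.69 beside -2.47 and -3.86 in control and -3.01 on Rb-deficient array 1. The highest array was thus control array 1 in the brighter probe and Rb-deficient array 2 in the dimmer.

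Among targets named for their part in cell death, Bax, which permeabilises mitochondria, read 2.09 and 2.29 in control and 2.78 and 3.003 in Rb-deficient islets, 1.62-fold higher (limma, unadjusted p 0.0275, adjusted p 0.806), and its other probe differed by 0.27 with overlapping groups. Bbc3, the gene of Puma, read 1.04 and 0.79 in control and 1.36 and 1.07 in Rb-deficient islets, a difference of 0.30. Pmaip1, the gene of Noxa, read -3.56 and -3.72 in control and -2.98 and -3.51 in Rb-deficient islets, a difference of 0.40 that was 0.15 with normexp, 0.97 with quantile normalization and 0.13 without Rb-deficient array 1. For both, Rb-deficient array 1 was the higher. Plk3, a stress-responsive kinase gene, and Pml, the gene of the nuclear body protein, were 1.43-fold and 1.40-fold higher, also with Rb-deficient array 1 above array 2. None of these passed limma over all genes, with adjusted p values from 0.806 to 0.863.

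Lower on both Rb-deficient arrays were Plk2, another Polo-like kinase gene, Rprm, the gene of the G2 arrest protein Reprimo, and Perp, a desmosome and apoptosis gene. Plk2 read 0.31 and 0.63 in control and 0.18 and -0.87 in Rb-deficient islets, 1.76-fold lower in the mean, and its difference of -0.81 was -0.29 without Rb-deficient array 2 and -1.34 without Rb-deficient array 1. Rprm was 1.65-fold and Perp 1.35-fold lower, and all 3 had an adjusted p of 0.863 in limma. Of the p53 relatives, Trp73 read -0.74 and -1.38 in control and -1.58 and -1.94 in Rb-deficient islets. Trp63 read 4.40 and 4.47 in control and 4.39 and 3.96 in Rb-deficient islets, while its other probe was not well above background on any array. Of the other Trp73 probes, 1 was not well above background on any array and 1 was so on control array 1 only. With scaling to the array median the differences of Perp and Trp63 turned to 0.0019 and 0.18.

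**Figure D4:**
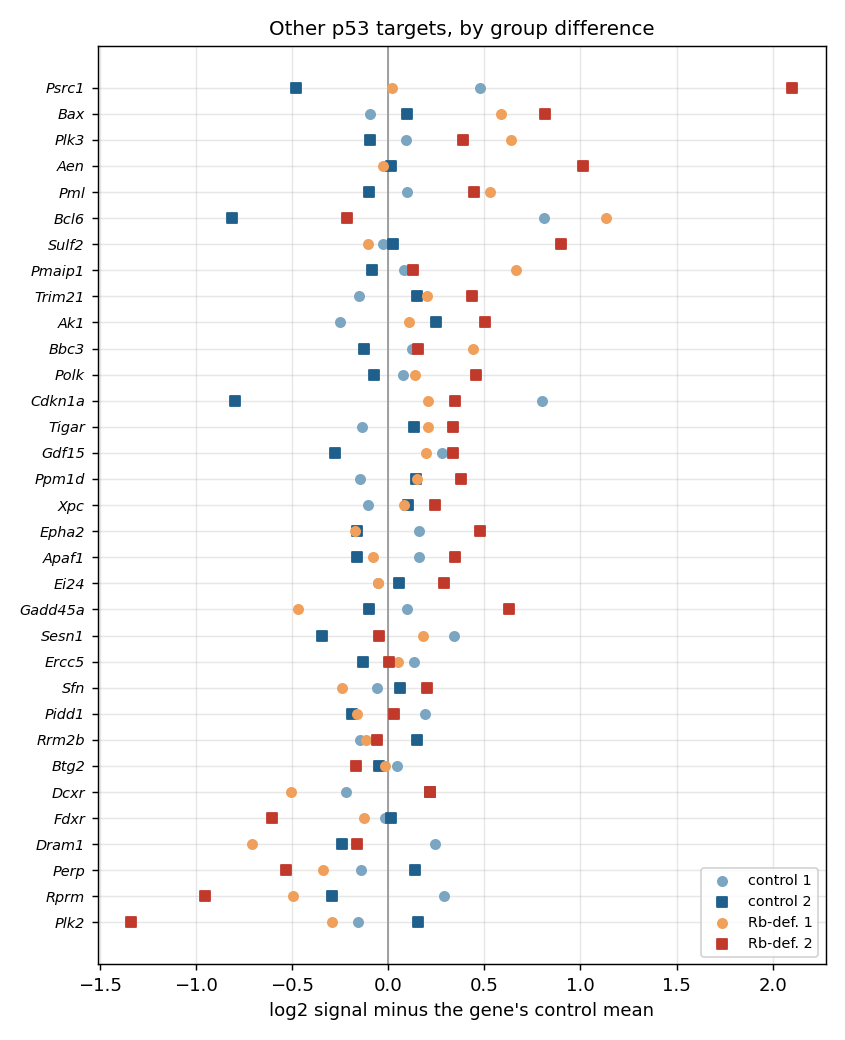
Log2 signal minus the control mean of each gene for the 33 other p53 targets tested, ordered by group difference, with 1 symbol per array. Rb-deficient array 2 is the highest of the 4 for 16 of 33, and far from the rest for Psrc1, Aen and Sulf2, while Plk2 and Rprm lie lowest on it.

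Upstream regulators of p53 come next. Of 25 listed, 24 were tested, since Chek2 failed the filter. The difference was above 0 for 15, against 41.9% of all genes and 52.5% of the named genes, and below 0 for 9. Their median was 0.026, beside -0.068 over all genes and 0.015 over the named genes. The exception in size was Cdkn2a, the locus of Arf and of the kinase inhibitor Ink4a, whose reading frames the probes were not matched to. It read -3.15 and -3.03 in control and -0.55 and 1.24 in Rb-deficient islets, 10.8-fold higher in the mean, and limma did not call it (adjusted p 0.623). A dimmer probe, not well above background in control islets, was at least 2.43-fold higher, a bound set by the dimmest signals above background. With scaling to the array median limma called the brighter probe (difference 3.87), and without Rb-deficient array 2 its difference was 2.54 in place of 3.43. Rb-deficient array 2 was the highest here too.

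Among the other regulators, Npm1, the nucleolar binding partner of Arf, was 1.27-fold higher, with 3 probes that separated the groups the same way. Ep300, an acetyltransferase of p53, differed by 0.21 in the probe used and by -0.12 in its other probe. Trp53bp2, which encodes a p53-binding protein that favours apoptotic targets, and Hipk2, a p53 kinase, were lower on both Rb-deficient arrays, with differences of -0.20 and -0.046, that turned to 0.24 and 0.39 with scaling to the array median. Mdm4, the partner of Mdm2, differed by -0.31 with overlapping groups, and its 4 probes gave differences from -0.58 to -0.22. With scaling to the array median its difference was 0.13. Adjusted p values of these 5 genes in limma ran from 0.863 to 0.958.

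Markers of other cells differed between the same arrays, and all those of the macrophage, endothelial, fibroblast and acinar lists were well above background on all 4 arrays. All 10 macrophage markers were highest on Rb-deficient array 2, and their list median, relative to control, was 0.41 on Rb-deficient array 1 and 1.39 on the other, with a summed scaled signal (intensity over the 75th percentile of the array) of 19.3 to 23.6 in control and 26.7 to 46.1 in Rb-deficient islets. All 7 endothelial and all 7 fibroblast and pericyte markers were also highest there, with medians of 0.38 and 0.58 on that array and summed scaled signals of 25.3 to 27.4 and 9.11 to 10.6 in control and 26.7 to 34.6 and 8.81 to 15.3 in Rb-deficient islets. The 4 delta and PP cell markers had medians of -0.28 and 0.28 on the control arrays and of -0.70 and 0.75 on the Rb-deficient arrays. Their summed scaled signal was 911 to 1044 in control and 765 to 1492 in Rb-deficient islets. Pyy and Ppy, 2 peptide hormone genes, were highest on Rb-deficient array 2, at 1.87 and 1.52 relative to their control means. Sst, of the same list, was lowest there (-0.45), and Hhex stood at -0.018. Acinar markers, 10 of 10, were highest on control array 1, and their median was -0.44 and -1.28 on the Rb-deficient arrays. Their summed scaled signal was 7047 to 8727 in control and 3479 to 6183 in Rb-deficient islets. The lymphoid markers Cd3g, Cd79a and Nkg7 were below the filter, and the other 5 had a median of 0.20 and 0.25 on the Rb-deficient arrays and 0.22 and -0.22 on the control arrays. On Rb-deficient arrays 1 and 2, beta cell markers had medians of 0.14 and -0.083, alpha cell markers -0.48 and -1.19, and ductal markers -0.28 and -0.39. The part of these cells in the values of Phlda3, Tnfrsf10b, Ccng1, Zmat3, Cdkn2a and the other targets was not tested.

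**Figure D5:**
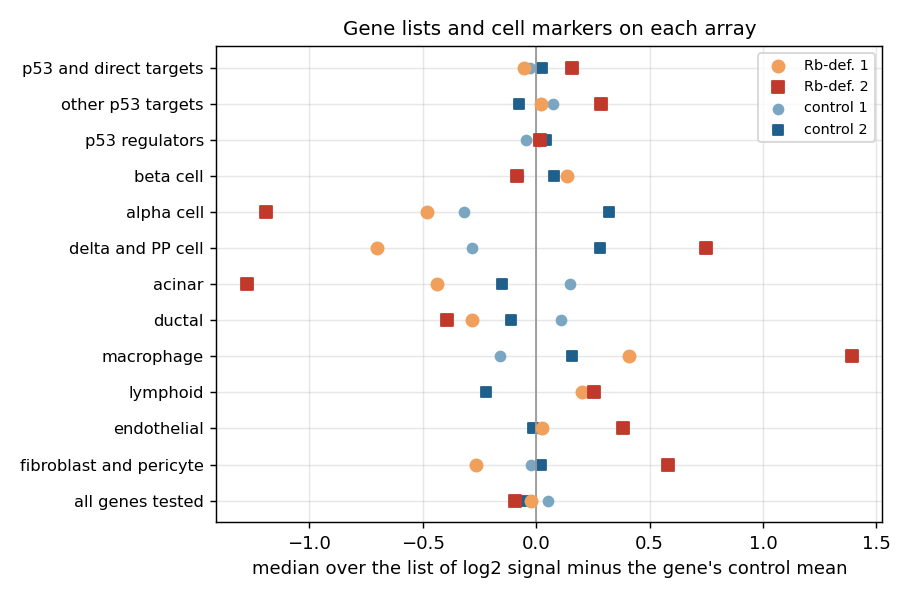
Median over each list of the log2 signal minus the gene's control mean, with 1 symbol per array. On Rb-deficient array 2 the p53 members (0.16) and the other p53 targets (0.29) stand above the remaining arrays. So do the delta and PP cell (0.75), macrophage (1.39), endothelial (0.38) and fibroblast lists (0.58), while the p53 regulators (0.019) do not. The lymphoid list is also highest on Rb-deficient array 2, narrowly, at 0.25 beside 0.22 on control array 1. Of the delta and PP cell list, Pyy and Ppy were highest on that array, and Sst and Hhex were not.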

How the data were processed

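Per the file headers, the authors' deposited scanner files hold intensity values read with Agilent Feature Extraction 12.0.3.1 in a protocol for a single colour, on a design annotated on mm9. The processed intensity is background-subtracted, with no scaling between arrays. A deposited table of the series holds the same intensity times a constant per array, 1.74 to 2.49, and served as an alternative. What set these constants is not known.

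Computed here were log2 processed intensities minus each array's 75th percentile over 59305 non-control spots. Control spots and 64 to 93 outlier-marked spots per array were left out, and no spot was saturated. Probe accessions were matched, without versions, to RefSeq of GRCm38.p6, which named 32994 of 56605 probes. Probes entered the test if both arrays of 1 group or the other had them well above background, and a gene took its probe of highest mean signal, 26378 in all, of which 15825 have a symbol and the rest no matched symbol. Levels of different probes are not comparable. The test was limma 3.58.1 (R 4.3.3; lmFit, then eBayes, without covariates), which gave two-sided p values with Benjamini-Hochberg adjustment over all genes, or over 33845 probes. It had 2 residual degrees of freedom and a prior worth 1.82. An exact permutation test of 2 against 2 arrays cannot go below 0.333 and was not used. Precision is limited by the number of arrays.

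Groups came from the sample titles. The p values weigh each difference against the spread between the 2 mice of a group, moderated by the prior. Between the control mice that spread also holds the difference in sex read from the transcripts. The 10 members, the lists and the named genes were chosen with earlier results of these data known. The rule for names takes all members, Rb1, Cdkn1a, Bax, Bbc3, Pmaip1, Mdm4, Cdkn2a, Trp63, Trp73, up to 3 listed targets and regulators per direction with the largest difference and separate groups, and the 3 listed genes nearest to Trp53. The alternatives were other background correction, scaling, filters and probe rules, the deposited table, each array left out and the replicate number as a block. The planned normexp alternative used the spot median, as the files give no spot mean.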

Additional observations from a re-analysis of the deposited data

How the results depend on the processing

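No member was called in any setting but scaling to the array median, where limma called 480 genes in place of 0, of the members Tnfrsf10b as 1 gene and 1 probe, and 1 regulator, Cdkn2a (differences 1.88 and 3.87). That scaling gave medians of 0.55 for the members, 0.60 for the other targets and 0.46 for the regulators, put 26 of 33 other targets highest on Rb-deficient array 2, and turned Trp53 (0.41), Ddb2 (0.25), Sesn2 (0.39), Mdm4 (0.13), Trp63 (0.18), Perp (0.0019), Trp53bp2 (0.24), Hipk2 (0.39), Rpl5 (0.36) and Sfn (0.42) above 0. Averaging probes gave a members' median of -0.012, with Mdm2 at -0.12 and Trp53inp1 at -0.12. Signs near 0 also turned for Fas with normexp (-0.092) and the authors' value table (-0.022), for Trp53 (0.065), Plvap (-0.018) and Sfn (0.025) with quantile normalization, and for Sfn (0.0056) with each probe counted once in the percentile, a setting added after the data were seen. The cause of these changes was not tested, beyond the constant that median scaling adds.

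With each array left out in turn, genes called ranged from 0 to 4102, the latter without control array 2, and members called stayed at 0. The range was 4 to 8 for members above 0, -0.054 to 0.28 for their median, 0.021 to 0.33 for the other targets and -0.030 to 0.075 for the regulators. For single genes it was -0.27 to 0.20 for Trp53, -0.12 to 0.61 for Ccng1, -0.24 to 1.65 for Phlda3, -0.0040 to 0.48 for Zmat3, -0.22 to 0.41 for Trp53inp1, -0.73 to 0.75 for Fas, -0.20 to 0.11 for Sesn2, -0.52 to 1.07 for Cdkn1a, -0.20 to 0.29 for Plvap, -0.25 to 0.088 for Rpl5, -0.24 to 0.20 for Sfn, 0.13 to 0.66 for Pmaip1, -1.34 to -0.29 for Plk2, -1.01 to -0.43 for Rprm and -0.57 to -0.057 for Mdm4. A lone array was assumed to vary like the other group. Arrays with the same replicate number deviated alike across genes (r = 0.30 over 26378 genes, which are not independent), but the labels do not pair them. With the replicate number as a block limma called 0 genes and 0 members, with 3160 genes at an unadjusted p under 0.05 in place of 1493, and an adjusted p of 0.304 for Tnfrsf10b. Dim probes, such as the second ones of Fas and Tnfrsf10b, limit what signal over background allows.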
